A study of Mus musculus with 12 samples.

Results

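The genes described here are 40 mouse genes whose products repair damaged DNA or halt the cell cycle when replication stalls. They were chosen by name. Each was read from the probe set annotated to its symbol alone, and where a gene had several such probe sets the one with the highest mean over the 12 arrays was taken. Of the 40 genes, 38 were measured and all 38 lay above the filter on low signals, among 12980 genes tested in all. Xrcc2 and Rbbp8 were not analysed here.

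The arrays measured RNA from spleen cells sorted for the erythroid surface protein Ter119 and for a high level of the transferrin receptor CD71, a gate that collects young erythroblasts. The mice were 3 months old and carried 1 of 4 genotype labels: WT for wild type, E2f8 KO for a knockout of E2f8, Rb KO for a knockout of Rb, and DKO for a mouse that lacks both. Each label had 3 biological replicates, thus 3 arrays. Strain, allele, the driver of any deletion and the number of animals behind an array are not named by the labels, so p-values measure the spread between these arrays. The comparisons ask how the repair and checkpoint genes stood in each knockout against WT, and whether the E2f8 label went with another difference in the presence of the Rb label than in its absence.

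E2F transcription factors switch on the genes needed for S phase. The retinoblastoma protein, product of Rb1, binds the activating E2Fs and keeps those genes off in cells that leave the cycle, and the atypical E2F encoded by E2f8 represses the same kind of gene. Erythroblasts divide rapidly before they enucleate, and homologous recombination, the Fanconi anemia pathway and the kinase cascade from Atr to Chek1 protect their replication forks.

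All levels below are log2 signals, and a difference of 1 on that scale is a factor of 2 in signal. Differences come from a limma fit over the 12 arrays and are given with their standard error (SE, 3 arrays in each group). The SE of a gene pools the spread within all 4 groups, so it is the same in every comparison of 2 groups. It is not the spread of the groups compared alone. A gene is called higher or lower where its p, adjusted by the Benjamini-Hochberg method over the 12980 genes, was under 0.05. The groups are named by their labels throughout, because the targeted genes followed them only in part. Rb1 read 12.23, 11.98 and 12.17 in DKO, 12.53, 12.33 and 12.39 in Rb KO, 11.74, 11.68 and 11.72 in E2f8 KO and 13.02, 12.74 and 12.71 in WT, so that it was lowest where the label was E2f8 KO (a difference of -1.11 ± 0.11, adjusted p = 0.000154), while the difference of -0.41 ± 0.11 (adjusted p = 0.394) in the arrays labelled Rb KO was not called. Rb1 was also called lower in the arrays labelled DKO (-0.70 ± 0.11, adjusted p = 0.000483). The E2f8 probe set rose in the arrays labelled E2f8 KO (0.86 ± 0.19, adjusted p = 0.00728) and DKO (1.18 ± 0.19, adjusted p = 0.000478). Each of these genes was read by 1 probe set whose place relative to a deletion the labels do not state, so the values do not settle the labels. Replicate 3 of E2f8 KO and replicate 3 of DKO were the only arrays with low Xist (5.22 and 3.99, against 11.30 to 12.18 in the other 10).

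Markers of other spleen cells moved with the groups, and their part in the results below was not tested beyond the covariate fits given there. The mean log2 signal of 14 B cell genes was 10.45 to 11.82 in WT, 7.81 to 8.21 in E2f8 KO, 9.86 to 12.01 in Rb KO and 6.25 to 7.40 in DKO, and all 14 were lower in DKO and in E2f8 KO than in WT. For 14 macrophage genes it was 9.15 to 10.004 in WT, 8.20 to 8.32 in E2f8 KO, 8.47 to 8.75 in Rb KO and 7.05 to 7.46 in DKO, and for 9 T and NK cell genes 7.92 to 8.20 in WT, 6.26 to 6.42 in E2f8 KO, 7.10 to 8.19 in Rb KO and 5.88 to 5.97 in DKO. The 16 granulocyte genes ran the other way, at 6.27 to 6.39 in WT, 8.0 to 8.47 in E2f8 KO, 6.73 to 6.83 in Rb KO and 6.80 to 10.08 in DKO, with 10 called higher in each of E2f8 KO and DKO against WT. The 15 erythroid genes, the markers of the sorted cell type, were high in all 12 arrays, 12.43 to 12.67 in WT, 12.68 to 12.85 in E2f8 KO, 12.01 to 12.67 in Rb KO and 12.76 to 12.77 in DKO, and Tfrc, which encodes CD71, read 12.87, 12.77 and 12.95 in DKO, 12.83, 12.27 and 11.73 in Rb KO, 13.09, 12.95 and 12.84 in E2f8 KO and 12.78, 12.37 and 12.50 in WT. Of the 15 erythroid genes 4 were called higher and 2 lower in each of E2f8 KO and DKO against WT. Of all genes, 11.9% were called higher and 14.2% lower in E2f8 KO, and 20.6% and 17.6% in DKO. The same shares stand beside the B cell and granulocyte counts above. In DKO against Rb KO 8 of the 15 erythroid genes were called higher and 2 lower, beside 19.5% and 17.6% of all genes. On arrays no gene reads 0, so no defining marker was at 0. In bulk RNA, fewer cells of a type and less RNA per cell cannot be told apart.

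**Figure D1:**
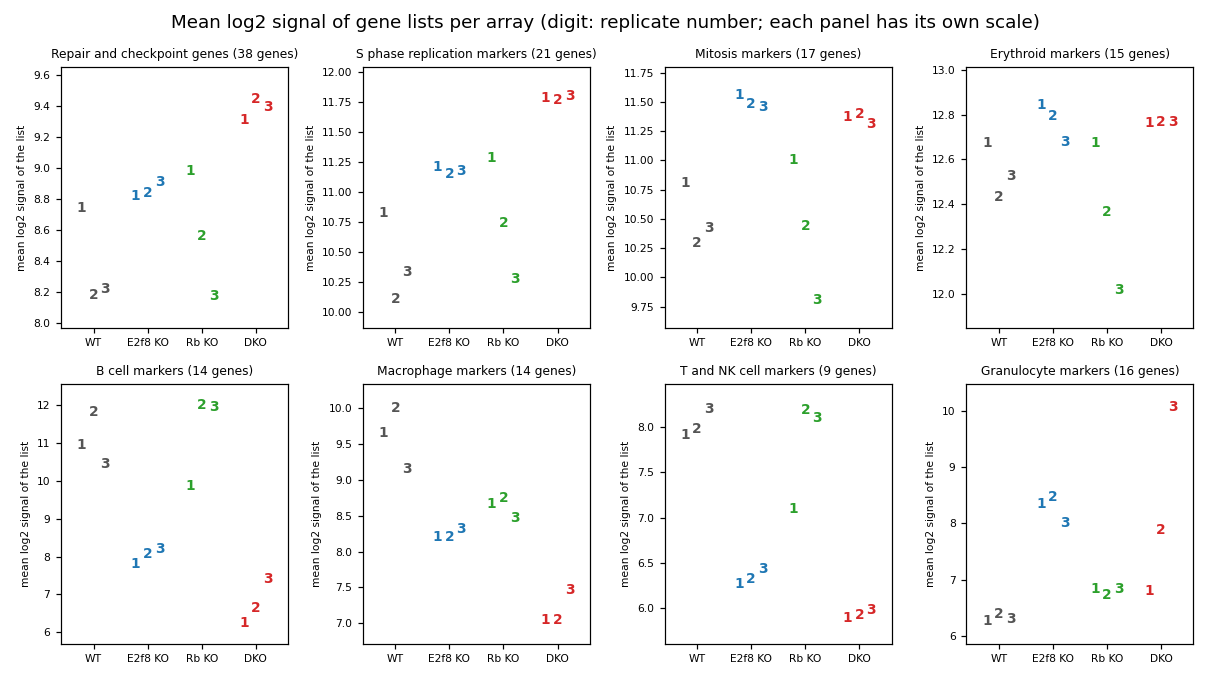
Mean log2 signal (y axis, its own scale in each panel) of the 38 repair and checkpoint genes and of 7 marker lists, for each array (digit: replicate number) in the 4 genotype groups (x axis). The repair and checkpoint genes and the S phase genes were highest in the 3 DKO arrays and scattered most in WT and Rb KO, while the B cell, macrophage and T and NK cell lists were lowest in DKO.

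The repair and checkpoint genes as a group were highest in DKO. Their mean log2 signal was 9.31, 9.45 and 9.40 in DKO, 8.98, 8.57 and 8.17 in Rb KO, 8.82, 8.84 and 8.91 in E2f8 KO and 8.74, 8.18 and 8.22 in WT, so that the 3 DKO arrays lay above the other 9 and the 3 E2f8 KO arrays lay just above the 3 WT arrays. DKO had the highest mean of the 4 groups in 33 of the 38 genes, E2f8 KO in 2, Rb KO in 2 and WT in 1. In 23 of the 38 genes every DKO array lay above all of the other 9 arrays, as was so for 11.2% of all genes tested. WT had the lowest mean in 24 of the 38. The orders of group means were not counted over all genes.

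**Figure D2:**
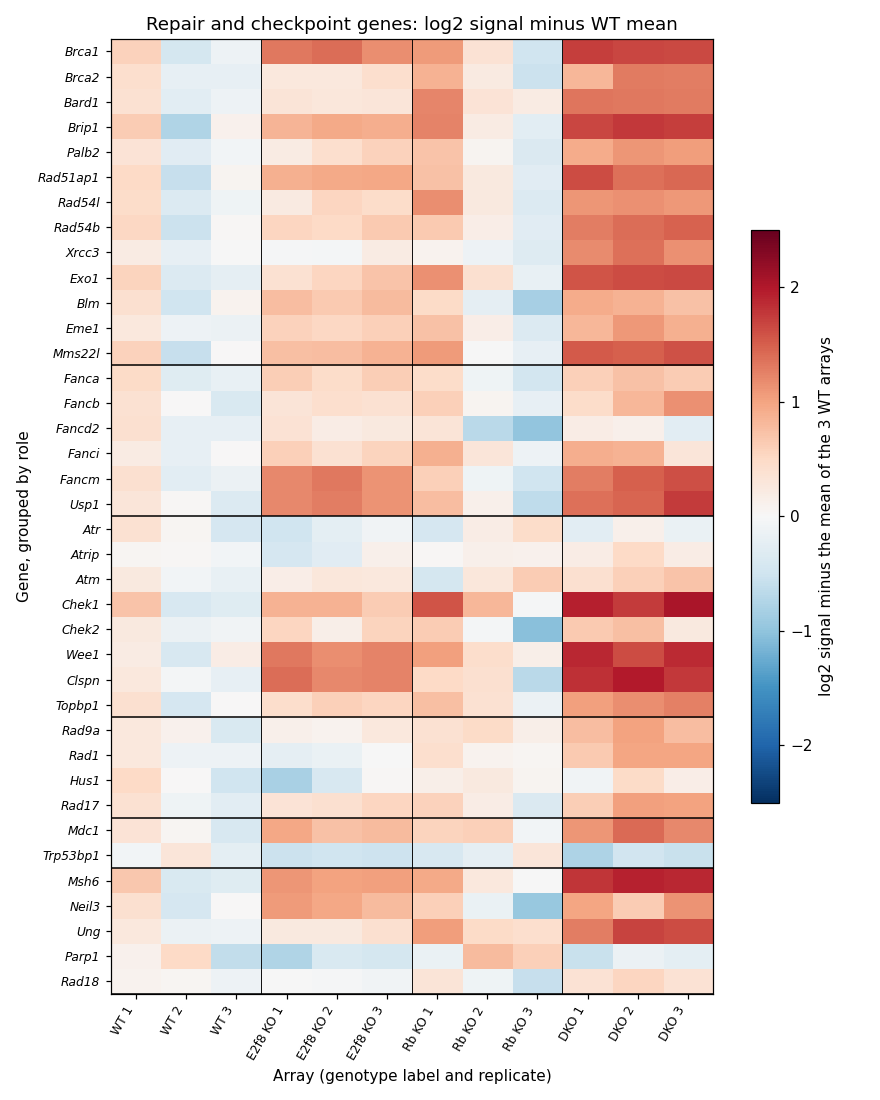
Log2 signal of each of the 38 genes (rows, grouped by role) in each of the 12 arrays (columns), as the difference from the mean of the 3 WT arrays (colour scale, red higher and blue lower). The DKO columns are red in nearly all rows, the E2f8 KO columns are red in fewer rows, among them Brca1, Fancm, Usp1, Wee1 and Clspn, and WT replicate 1 and Rb KO replicate 1 are redder than the other arrays of their groups.

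Against WT, 28 of the 38 genes were higher in DKO and 1, Trp53bp1, was lower. Of all genes tested, 38.2% were called in this comparison, 20.6% higher and 17.6% lower. The median difference of the 38 genes was 1.07, beside 0.0004 over all genes. In 33 of the 38 every DKO array lay above every WT array, as in 24.5% of all genes. At the edge of the threshold, Fanci (adjusted p = 0.0425) was just inside and Fanca (adjusted p = 0.0505) just outside. The calls rested on the spread shared by all 12 arrays and on no adjustment for cell makeup. With the mean of the B cell list as a covariate 3 of the 38 genes were called, and with the B cell and macrophage means together none was. Among genes called with or without the covariates, the sign of the difference turned in 14 with the first and in 3 with both. Sign changes in genes called in neither fit were not counted. The slopes of the covariates come from differences within groups, where the B cell mean had an SD of 1.23 in Rb KO and 0.20 in E2f8 KO. They are carried over the distance between group means of 11.07 in WT and 6.76 in DKO. The SE also grew. For Brca1 it was 0.33 without a covariate and 0.64 with the B cell mean. For Blm it was 0.28 without a covariate, 0.49 with the B cell mean and 0.74 with both means. A call lost under a covariate therefore does not show that a difference was absent.

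In E2f8 KO against WT, 9 of the 38 genes were higher and none was lower, beside 11.9% of all genes called higher and 14.2% lower (26.1% in all). The 9 were Brca1, Rad51ap1, Fancm, Usp1, Wee1, Clspn, Mdc1, Msh6 and Neil3, and the median difference of the 38 genes was 0.47, beside 0.059 over all genes. The count depended on single arrays: it was 4 without WT replicate 2, 5 without E2f8 KO replicate 1, 16 without WT replicate 1, and 16 (15 higher, 1 lower) without Rb KO replicate 1. It was 5 without both arrays low in Xist, 16 (15 higher, 1 lower) in a fit to the arrays of these groups alone and 27 (25 higher, 2 lower) with array weights. With either covariate set none of the 38 was called.

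In Rb KO against WT none of the 38 genes was called by limma, and 4 had an unadjusted p under 0.05, beside 0.0077% of all genes called and 4.6% at that unadjusted level. The median difference was 0.18, beside 0.037 over all genes, and it was -0.04 without Rb KO replicate 1 and 0.42 without Rb KO replicate 3. The Rb KO arrays varied more than any other group in these genes. The median SD of a gene was 0.51 in Rb KO, 0.359 in WT, 0.147 in DKO and 0.094 in E2f8 KO, beside 0.217, 0.246, 0.184 and 0.117 over all genes. Rb KO replicate 1 was the highest of its group in 30 of the 38 genes and replicate 3 the lowest in 33, and WT replicate 1 was the highest of its group in 36.

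DKO against Rb KO, a comparison that shares no array with E2f8 KO against WT, called 28 of the 38 genes higher and none lower, beside 19.5% of all genes called higher and 17.6% lower (37.1% in all). Its median difference was 0.85, beside -0.014 over all genes. The 9 genes higher in E2f8 KO against WT were all among these 28, so that they made up 9 of 9 in one list and 9 of 28 in the other. This overlap was not set beside that of all genes, and with 28 of the 38 genes called a large overlap was likely in any case. The comparisons were not independent in other respects. Both took the spread of a gene from the same fit over all arrays, and in both the B cell and macrophage lists were lower. The difference of DKO from Rb KO was the larger of the pair in 36 of 38 genes, beside 6501 of the 12980 genes tested. It was not shown to be larger by test: the difference between both differences (the interaction) was called in none of the 38 genes by limma, with 3 at an unadjusted p under 0.05, beside 0.077% of all genes called and 5.7% at that unadjusted level. The count of 28 fell to 15 without Rb KO replicate 3 and to 18 without DKO replicate 3, and it was 17 without both arrays low in Xist and 18 in a fit to the arrays of these groups alone. Given the B cell covariate it was 1, and given both none was called. Among genes called with or without the covariates, the sign of the difference turned in 17 with the first and in 7 with both. Sign changes in genes called in neither fit were again not counted.

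DKO against E2f8 KO called 4 genes higher (Xrcc3, Rad1, Ung and Bard1) and none lower, beside 1.73% of all genes called higher and 0.647% lower (2.37% in all). At an unadjusted p under 0.05 it had 20 of the 38 genes, beside 18.1% of all genes. The median difference was 0.51, beside -0.022 over all genes, and in 27 of the 38 genes every DKO array lay above every E2f8 KO array, beside 18.1% of all genes. The mean of the B cell list was 6.76 in DKO and 8.03 in E2f8 KO, and that of the macrophage list 7.19 and 8.24. With the B cell covariate 7 of the 38 genes were called, 6 higher and 1 (Fancd2) lower, and with both 1 was called higher. The count was 1 without E2f8 KO replicate 1 and without both arrays low in Xist, 2 without DKO replicate 2, 8 without Rb KO replicate 1, 20 in a fit to the arrays of these groups alone, and 22 with array weights, all of them higher. The pooled spread behind the main count of 4 includes WT and Rb KO. The median SD of the 38 genes was 0.359 and 0.51 there, beside 0.094 in E2f8 KO and 0.147 in DKO.

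**Figure D3:**
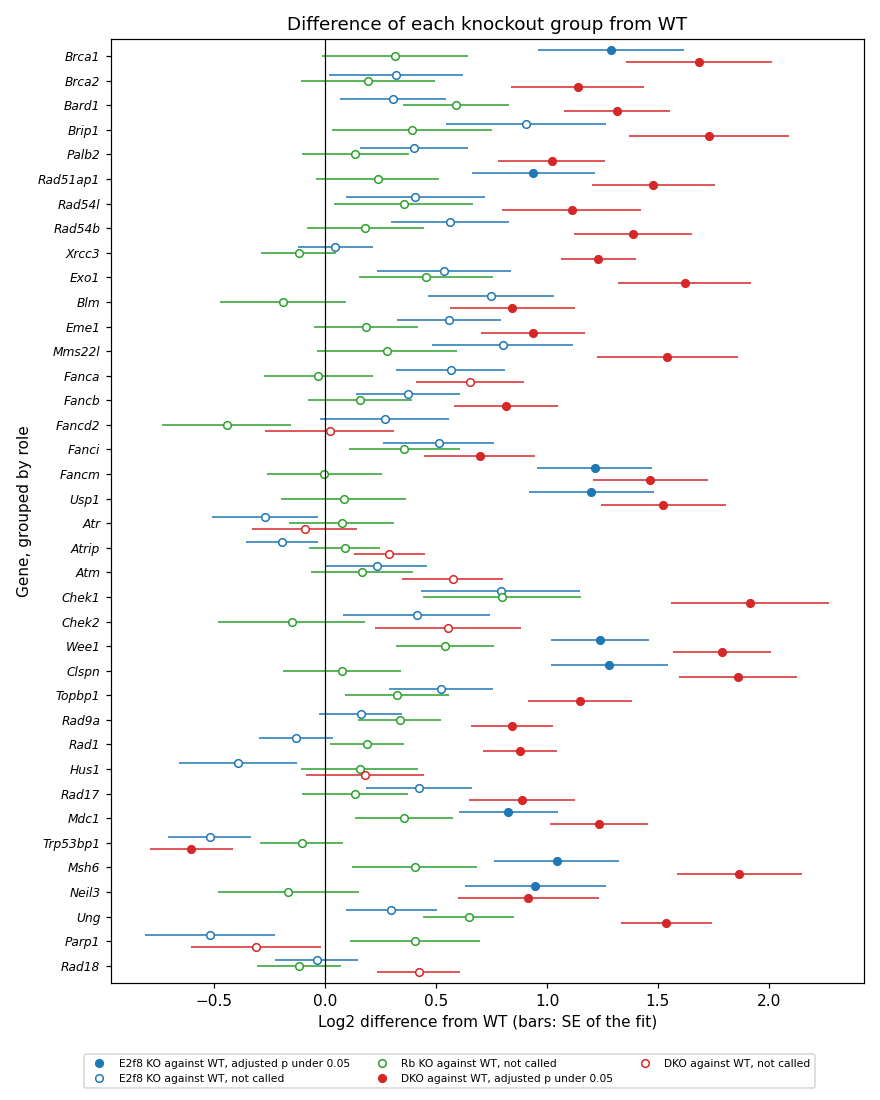
Log2 difference of E2f8 KO (blue), Rb KO (green) and DKO (red) from WT (x axis) for each of the 38 genes (y axis, grouped by role), with the SE of the fit as bars. Filled points have an adjusted p under 0.05 and open points do not: 9 blue, 29 red and no green points are filled, and Trp53bp1 is the only filled point left of 0.

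Homologous recombination rebuilds a broken or collapsed fork from the sister chromatid, and its 13 measured genes were all higher in DKO than in WT, with a median difference of 1.32 and a range of 0.84 (Blm) to 1.73 (Brip1). In DKO against Rb KO 12 of the 13 were higher, with Rad54l (0.76 ± 0.31, adjusted p = 0.0764) the exception. In E2f8 KO against WT 2 of the 13 (15.4%) were higher, near the 11.9% of all genes, with a median of 0.56. The shares of all genes called higher were 20.6% in DKO against WT and 19.5% in DKO against Rb KO. Brca1, a ubiquitin ligase subunit that promotes the resection of broken ends, read 10.86, 10.81 and 10.80 in DKO, 10.21, 9.49 and 8.65 in Rb KO, 10.45, 10.53 and 10.30 in E2f8 KO and 9.71, 8.70 and 9.002 in WT. Its E2f8 KO and DKO arrays lay above every WT and Rb KO array, and every DKO array lay above every E2f8 KO array. It rose by 1.29 ± 0.33 (adjusted p = 0.0136) in E2f8 KO and by 1.68 ± 0.33 (adjusted p = 0.00154) in DKO against WT, and the difference of DKO from E2f8 KO, 0.39 ± 0.33 (adjusted p = 0.539), was not called.

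Bard1, the partner that Brca1 needs for its ligase activity, followed another order. It read 11.30, 11.28 and 11.26 in DKO, 11.19, 10.30 and 10.18 in Rb KO, 10.29, 10.25 and 10.26 in E2f8 KO and 10.34, 9.71 and 9.84 in WT. The E2f8 KO arrays lay inside the range of WT, Rb KO replicate 1 came near DKO, and every DKO array was above all others. Bard1 rose in DKO against WT by 1.32 ± 0.24 (adjusted p = 0.000963), against Rb KO by 0.73 ± 0.24 (adjusted p = 0.0292) and against E2f8 KO by 1.01 ± 0.24 (adjusted p = 0.0462), while E2f8 KO differed from WT by 0.30 ± 0.24 (adjusted p = 0.373). Bard1 was the only one of the 38 genes with several probe sets of its own, 3 in number.

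Brca2, a mediator of strand exchange that binds single-stranded DNA, read 9.48, 9.95 and 9.92 in DKO, 9.52, 8.87 and 8.11 in Rb KO, 8.91, 8.91 and 9.07 in E2f8 KO and 9.06, 8.44 and 8.43 in WT. Palb2, which joins Brca2 to Brca1, read 7.74, 7.91 and 7.85 in DKO, 7.52, 6.88 and 6.45 in Rb KO, 7.02, 7.23 and 7.39 in E2f8 KO and 7.16, 6.53 and 6.75 in WT. In both genes every DKO array was above every WT and E2f8 KO array, and Rb KO replicate 1 was well above the other arrays of its group. The rise in DKO against WT was 1.14 ± 0.30 (adjusted p = 0.00948) in Brca2 and 1.02 ± 0.24 (adjusted p = 0.00507) in Palb2, and neither was called in E2f8 KO (0.32 and 0.40). Brip1, a helicase that binds Brca1, read 9.93, 10.02 and 9.98 in DKO, 9.48, 8.46 and 7.98 in Rb KO, 9.10, 9.20 and 9.15 in E2f8 KO and 8.88, 7.50 and 8.36 in WT and had the largest difference of the 13 from WT in DKO, 1.73 ± 0.36 (adjusted p = 0.00231). Its difference of 0.90 ± 0.36 (adjusted p = 0.0814) in E2f8 KO was not called, although the E2f8 KO and WT arrays did not overlap.

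Among the genes that act on the joint molecule, Rad51ap1, which stimulates strand pairing, read 10.14, 9.88 and 9.93 in DKO, 9.24, 8.75 and 8.23 in Rb KO, 9.39, 9.46 and 9.47 in E2f8 KO and 9.01, 7.93 and 8.57 in WT. It rose in both E2f8 KO (0.94 ± 0.28, adjusted p = 0.0258) and DKO (1.48 ± 0.28, adjusted p = 0.00119) against WT. The DNA translocases Rad54l and Rad54b rose in DKO against WT by 1.11 ± 0.31 (adjusted p = 0.0135) and 1.39 ± 0.26 (adjusted p = 0.00131). Rad54b read 8.80, 8.91 and 8.99 in DKO and no more than 8.17 in any other array, whereas the Rad54l array of Rb KO replicate 1 (9.56) was above all 3 DKO arrays (9.51, 9.53 and 9.48).

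Xrcc3, which acts in strand exchange and in the resolution of joined chromatids, stood apart in DKO. It read 8.81, 9.005 and 8.77 in DKO, 7.71, 7.51 and 7.31 in Rb KO, 7.61, 7.59 and 7.83 in E2f8 KO and 7.84, 7.43 and 7.62 in WT. The 9 arrays of the other groups lay between 7.31 and 7.84, and the 3 DKO arrays between 8.77 and 9.005. Xrcc3 rose in DKO against WT by 1.23 ± 0.17 (adjusted p = 0.000162), against Rb KO by 1.35 ± 0.17 (adjusted p = 0.000142) and against E2f8 KO by 1.19 ± 0.17 (adjusted p = 0.0032), while its differences in E2f8 KO (0.046) and Rb KO (-0.12) against WT were not called. The interaction was 1.30 ± 0.24 (SE, unadjusted p = 0.000114, adjusted p = 0.104) and so was not called. It was called with array weights (limma adjusted p = 0.022), given the B cell covariate (0.0445) and given both (0.0472). Of the 12 fits that left out 1 array, 1 called it (without Rb KO replicate 1, 0.0224), and the highest adjusted p was 0.36. It was not called with quantile normalization (0.204), array centring (0.173), the replicate numbers as a block (0.156) or without both arrays low in Xist (0.286). Nor was it called with no filter (0.152), a 60% filter (0.0973), averaged probe sets (0.101) or no variance trend (0.0673). Xrcc3 was also the one gene of the 4 called in DKO against E2f8 KO whose call held in all 12 fits that left out 1 array.

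The nucleases, the helicase and the fork protection factor completed the recombination genes. Exo1, which resects DNA ends and cuts mismatched strands, read 9.58, 9.63 and 9.67 in DKO, 9.15, 8.41 and 7.83 in Rb KO, 8.38, 8.54 and 8.71 in E2f8 KO and 8.57, 7.67 and 7.78 in WT, and rose in DKO against WT by 1.62 ± 0.30 (adjusted p = 0.00113). Mms22l, which acts with Tonsl at stalled forks, rose by 1.54 ± 0.32 (adjusted p = 0.00212), and Eme1, the partner of the Mus81 nuclease, by 0.94 ± 0.23 (adjusted p = 0.00708). Blm, the helicase that dissolves joined chromatids, rose by 0.84 ± 0.28 (adjusted p = 0.0313), its DKO arrays (11.08, 11.03 and 10.89) overlapping those of E2f8 KO (10.93, 10.82 and 10.95). The Blm call held in 7 of the 12 fits that left out 1 array. The 4 genes were above 0 but not called in E2f8 KO against WT, with differences of 0.54, 0.80, 0.56 and 0.75 in that order.

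**Figure D4:**
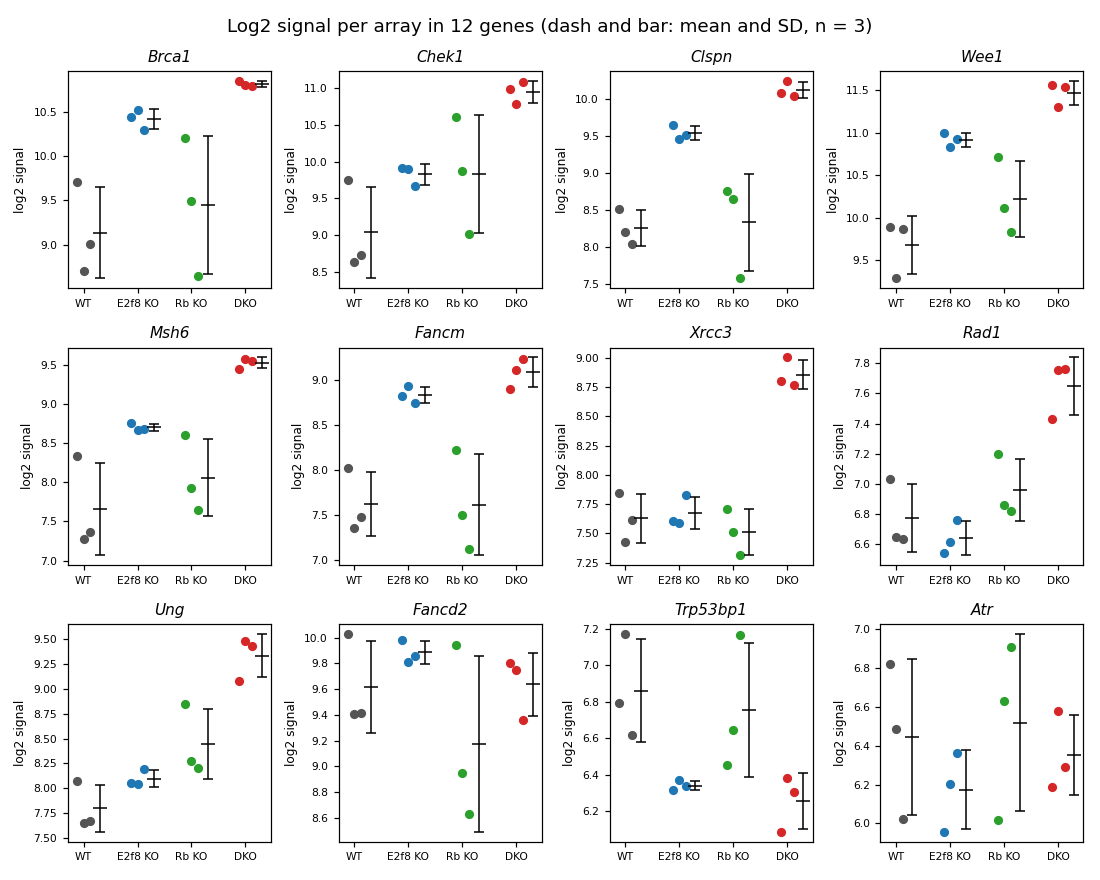
Log2 signal of 12 repair and checkpoint genes (y axis, its own scale in each panel) in the 3 arrays of each genotype group (points), with the group's mean and SD (dash and bar, n = 3). Brca1, Clspn, Wee1, Msh6 and Fancm are raised in E2f8 KO and in DKO, Xrcc3 and Rad1 stand out in DKO, Trp53bp1 is lowest in E2f8 KO and DKO, and Fancd2 and Atr show groups that overlap.

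The Fanconi anemia pathway unhooks crosslinks between DNA strands at stalled forks. Of its 6 genes here 4 were higher in DKO than in WT (Fancb, Fanci, Fancm and Usp1), with a median of 0.76, and 2 were higher in E2f8 KO. These counts stand beside 20.6% of all genes called higher in DKO and 11.9% in E2f8 KO. Fancm, the translocase that brings the core complex to DNA, read 8.90, 9.11 and 9.23 in DKO, 8.22, 7.50 and 7.11 in Rb KO, 8.82, 8.93 and 8.74 in E2f8 KO and 8.02, 7.35 and 7.48 in WT. The WT and Rb KO arrays were low and overlapped, and the E2f8 KO and DKO arrays were high and overlapped with each other. It rose by 1.21 ± 0.26 (adjusted p = 0.00596) in E2f8 KO and by 1.47 ± 0.26 (adjusted p = 0.000816) in DKO against WT, with 0.25 ± 0.26 (adjusted p = 0.628) between DKO and E2f8 KO. Usp1, the protease that takes ubiquitin off Fancd2 and the replication clamp PCNA, read 11.48, 11.54 and 11.83 in DKO, 10.85, 10.22 and 9.46 in Rb KO, 11.30, 11.37 and 11.21 in E2f8 KO and 10.40, 10.13 and 9.75 in WT. It rose by 1.20 ± 0.28 (adjusted p = 0.00913) in E2f8 KO and by 1.52 ± 0.28 (adjusted p = 0.00107) in DKO, and its DKO arrays were above those of E2f8 KO without a call (0.32 ± 0.28, adjusted p = 0.556).

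Fancd2, which the core complex marks with ubiquitin, was called in none of the 6 comparisons without a covariate. It read 9.80, 9.75 and 9.36 in DKO, 9.94, 8.95 and 8.63 in Rb KO, 9.99, 9.81 and 9.86 in E2f8 KO and 10.03, 9.41 and 9.42 in WT, with all groups overlapping WT. Its difference was 0.019 ± 0.29 (adjusted p = 0.971) in DKO and 0.27 ± 0.29 (adjusted p = 0.526) in E2f8 KO against WT, so at this spread no difference was detectable without a covariate. Every DKO array was just below every E2f8 KO array, with a difference of -0.25 ± 0.29 (adjusted p = 0.669). With the B cell covariate it was called lower in DKO against WT (-1.81, limma adjusted p = 0.0441) and against E2f8 KO (-0.78, adjusted p = 0.0449), but in neither with both covariates. Fanci, which pairs with Fancd2, read 9.24, 9.18 and 8.63 in DKO, 9.22, 8.62 and 8.20 in Rb KO, 8.92, 8.70 and 8.88 in E2f8 KO and 8.53, 8.11 and 8.33 in WT, and rose in DKO against WT by 0.70 ± 0.25 (adjusted p = 0.0425). The Fanci call held in 4 of the 12 fits that left out 1 array. Of the core complex genes, Fancb rose in DKO against WT by 0.81 ± 0.23 (adjusted p = 0.015) and Fanca had a difference of 0.65 ± 0.24 (adjusted p = 0.0505).

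Of the 8 checkpoint kinase genes 4 were higher in DKO than in WT (Chek1, Clspn, Wee1 and Topbp1), with a median of 0.86, and 2 were higher in E2f8 KO (Clspn and Wee1). The shares of all genes called higher were 20.6% in DKO and 11.9% in E2f8 KO. Atr, the kinase that senses single-stranded DNA, read 6.19, 6.58 and 6.29 in DKO, 6.02, 6.63 and 6.91 in Rb KO, 5.96, 6.201 and 6.36 in E2f8 KO and 6.82, 6.49 and 6.02 in WT, and its partner Atrip read 7.38, 7.68 and 7.37 in DKO, 7.21, 7.32 and 7.29 in Rb KO, 6.77, 6.90 and 7.31 in E2f8 KO and 7.23, 7.21 and 7.11 in WT. Neither was called in any of the 6 comparisons, and the DKO arrays of Atr lay within the WT range. Atr was a weak signal, near the array medians (6.22 to 6.35) and not far above the filter level of 5.84. The DKO difference from WT was -0.093 ± 0.24 (adjusted p = 0.81) in Atr, 0.29 ± 0.16 (adjusted p = 0.185) in Atrip and 0.57 ± 0.23 (adjusted p = 0.064) in Atm, the kinase that responds to double-strand breaks. Chek2, the kinase that Atm activates, had a difference of 0.55 ± 0.33 (adjusted p = 0.22) from WT in DKO.

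Chek1, the effector kinase that restrains Cdk activity when forks stall, read 10.99, 10.78 and 11.08 in DKO, 10.61, 9.87 and 9.01 in Rb KO, 9.91, 9.90 and 9.66 in E2f8 KO and 9.75, 8.63 and 8.72 in WT. Every DKO array was above every other array, the E2f8 KO arrays lay close to WT replicate 1, and the Rb KO arrays ran from 9.01 to 10.61. Chek1 had the largest DKO difference from WT of the 38 genes, 1.92 ± 0.36 (adjusted p = 0.00113), while E2f8 KO (0.79 ± 0.36, adjusted p = 0.12) and Rb KO (0.80) were not called. Clspn encodes Claspin, the adaptor through which Atr activates Chek1, and read 10.08, 10.24 and 10.03 in DKO, 8.76, 8.66 and 7.58 in Rb KO, 9.65, 9.46 and 9.51 in E2f8 KO and 8.52, 8.21 and 8.05 in WT. Its E2f8 KO and DKO arrays were all above every WT and Rb KO array, with rises of 1.28 ± 0.26 (adjusted p = 0.00521) and 1.86 ± 0.26 (adjusted p = 0.000201) against WT.

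Wee1, the kinase that places the inhibitory phosphate on Cdk1 and Cdk2, read 11.57, 11.31 and 11.54 in DKO, 10.71, 10.12 and 9.84 in Rb KO, 10.998, 10.84 and 10.93 in E2f8 KO and 9.89, 9.29 and 9.86 in WT. The order of the groups was WT lowest, then Rb KO, E2f8 KO and DKO, with WT and Rb KO overlapping. It rose by 1.24 ± 0.22 (adjusted p = 0.0027) in E2f8 KO and by 1.79 ± 0.22 (adjusted p = 8.43e-05) in DKO against WT, the smallest p of the 38 genes in each comparison. DKO against E2f8 KO gave 0.55 ± 0.22 (adjusted p = 0.217), and the interaction was 0.011 ± 0.31 (adjusted p = 0.995), near 0. Topbp1, which activates Atr at stalled forks, read 10.98, 11.10 and 11.21 in DKO, 10.70, 10.33 and 9.80 in Rb KO, 10.39, 10.54 and 10.48 in E2f8 KO and 10.36, 9.52 and 9.96 in WT, with DKO above all other arrays and a rise of 1.15 ± 0.23 (adjusted p = 0.00201) against WT.

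The ring-shaped clamp of Rad9a, Rad1 and Hus1 is loaded at damaged DNA by Rad17 and brings Topbp1 to Atr. In E2f8 KO against WT none of these 4 genes was called, and their median difference was 0.013. In DKO against WT 3 were higher and Hus1 was not called, beside 20.6% of all genes called higher. Rad1 read 7.43, 7.76 and 7.76 in DKO, 7.20, 6.86 and 6.82 in Rb KO, 6.54, 6.61 and 6.76 in E2f8 KO and 7.03, 6.65 and 6.63 in WT, so that E2f8 KO was within or below the WT range while every DKO array was above all others. It rose in DKO against WT by 0.88 ± 0.17 (adjusted p = 0.00124) and against E2f8 KO by 1.01 ± 0.17 (adjusted p = 0.00757). Its interaction of 0.82 ± 0.23 (adjusted p = 0.52) was not called. Rad9a rose in DKO against WT by 0.84 ± 0.19 (adjusted p = 0.00331), with arrays of 9.87, 10.11 and 9.87 in DKO and none above 9.59 elsewhere. Rad17 rose by 0.89 ± 0.24 (adjusted p = 0.0105). Hus1 read 8.56, 9.12 and 8.81 in DKO, 8.80, 8.89 and 8.73 in Rb KO, 7.84, 8.25 and 8.68 in E2f8 KO and 9.14, 8.66 and 8.15 in WT, with every other group overlapping WT.

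The break mediators went opposite ways. Mdc1, the scaffold that binds phosphorylated histone H2AX beside a break, read 10.34, 10.66 and 10.44 in DKO, 9.79, 9.83 and 9.18 in Rb KO, 10.20, 9.98 and 10.03 in E2f8 KO and 9.59, 9.30 and 8.84 in WT, and rose by 0.83 ± 0.22 (adjusted p = 0.0166) in E2f8 KO and by 1.24 ± 0.22 (adjusted p = 0.000892) in DKO against WT. Trp53bp1, which holds back end resection and thereby favours end joining, read 6.09, 6.38 and 6.30 in DKO, 6.45, 6.65 and 7.16 in Rb KO, 6.31, 6.37 and 6.34 in E2f8 KO and 6.79, 7.17 and 6.62 in WT. Its E2f8 KO and DKO arrays, from 6.09 to 6.38, were all below the lowest WT and Rb KO array (6.45). Trp53bp1 was a weak signal there, near the array medians (6.22 to 6.35) and not far above the filter level of 5.84. It fell by 0.60 (SE 0.19, adjusted p = 0.0214) in DKO against WT, and the difference in E2f8 KO was -0.52 ± 0.19 (adjusted p = 0.0567). Its sign turned under the B cell covariate, to 0.42, where it was not called.

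Of the 5 genes of base, mismatch and lesion repair, 3 were higher in DKO than in WT (Msh6, Neil3 and Ung) and 2 were higher in E2f8 KO (Msh6 and Neil3). Among all genes 20.6% were called higher in DKO and 11.9% in E2f8 KO. Msh6, which recognises mismatches, read 9.45, 9.58 and 9.55 in DKO, 8.61, 7.92 and 7.65 in Rb KO, 8.75, 8.66 and 8.68 in E2f8 KO and 8.33, 7.27 and 7.36 in WT. Its groups were ordered from WT and Rb KO, which overlapped, through E2f8 KO to DKO, with rises of 1.04 ± 0.28 (adjusted p = 0.0173) in E2f8 KO and 1.87 ± 0.28 (adjusted p = 0.000301) in DKO against WT. Neil3, a glycosylase that opens crosslinks at replication forks, read 11.01, 10.65 and 11.14 in DKO, 10.62, 9.86 and 9.08 in Rb KO, 11.09, 10.99 and 10.82 in E2f8 KO and 10.42, 9.61 and 10.04 in WT. It rose by 0.95 ± 0.32 (adjusted p = 0.0437) in E2f8 KO and by 0.91 ± 0.32 (adjusted p = 0.0368) in DKO against WT, and the arrays of these groups overlapped. These calls held in 4 and 7 of the 12 fits that left out 1 array.

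Ung, which removes uracil from newly made DNA, read 9.09, 9.49 and 9.43 in DKO, 8.85, 8.27 and 8.21 in Rb KO, 8.05, 8.04 and 8.19 in E2f8 KO and 8.07, 7.65 and 7.67 in WT. All Rb KO arrays were above all WT arrays, the only one of the 38 genes in which this was so, but the difference of 0.65 ± 0.20 (adjusted p = 0.536) was not called. Groups that do not overlap in this direction made up 2.25% of all genes. Ung rose in DKO against WT by 1.54 ± 0.20 (adjusted p = 0.000132) and against E2f8 KO by 1.24 ± 0.20 (adjusted p = 0.00789). Parp1, which signals single-strand breaks, read 7.90, 8.30 and 8.21 in DKO, 8.28, 9.24 and 9.04 in Rb KO, 7.70, 8.07 and 8.02 in E2f8 KO and 8.55, 8.95 and 7.84 in WT, and its 3 highest arrays (WT replicate 2 and Rb KO replicates 2 and 3) were the 3 with the highest B cell means. It was not called in any comparison without a covariate. With the B cell covariate its sign in DKO against WT turned, from -0.31 to 1.68 (limma adjusted p = 0.0395), and it was also called higher in DKO against E2f8 KO (0.79, adjusted p = 0.0284), but in neither with both covariates. Rad18, the ligase that marks PCNA for lesion bypass, differed by 0.42 ± 0.19 (adjusted p = 0.0953) in DKO against WT and was higher in DKO than in Rb KO (0.54 ± 0.19, adjusted p = 0.0377). The call against Rb KO held in 4 of the 12 fits that left out 1 array.

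Other genes of the same pathways were counted from lists that do not hold the 40 genes. In DKO against WT, 21 of 31 other recombination genes were higher and none lower, with a median of 0.86. Among them were Sfr1 (1.87 ± 0.20, adjusted p = 3.53e-05), a cofactor of strand exchange, and Rpa2 (1.99 ± 0.23, adjusted p = 5.17e-05), a subunit of the single-strand binding protein. Of 21 other checkpoint genes 19 were higher and 1 lower, with a median of 1.27. Dtl, which directs Cdt1 to destruction in S phase, rose by 1.98 ± 0.22 (adjusted p = 4.78e-05), Pkmyt1, a relative of Wee1, by 1.55 ± 0.20 (adjusted p = 0.000126), and Cdc25a, the phosphatase that opposes Wee1, by 1.63 ± 0.23 (adjusted p = 0.000175), while Cdc25b fell by 0.87 (adjusted p = 0.000235). Of 14 other Fanconi genes 9 were higher and none lower, led by the ubiquitin-conjugating enzyme Ube2t (1.65 ± 0.23, adjusted p = 0.000166).

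Translesion synthesis, which copies past lesions with low-fidelity polymerases, had 8 of 11 genes higher and 3 lower in DKO. Polk (1.89 ± 0.19, adjusted p = 2.44e-05) and the catalytic subunit Rev3l (1.66 ± 0.21, adjusted p = 9.74e-05) led the higher genes, and Ube2b, the enzyme that works with Rad18, fell by 1.03 (adjusted p = 0.000428). Mismatch repair had 3 of 4 genes higher, and base excision and single-strand break repair 8 of 17 higher and 1 lower. Nucleotide excision repair, which removes bulky lesions, had 2 of 18 higher and 3 lower with a median of 0.15, and end joining, which seals breaks without a template, had 3 of 11 higher and 2 lower with a median of -0.052. These shares stand beside 20.6% of all genes higher and 17.6% lower.

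**Figure D5:**
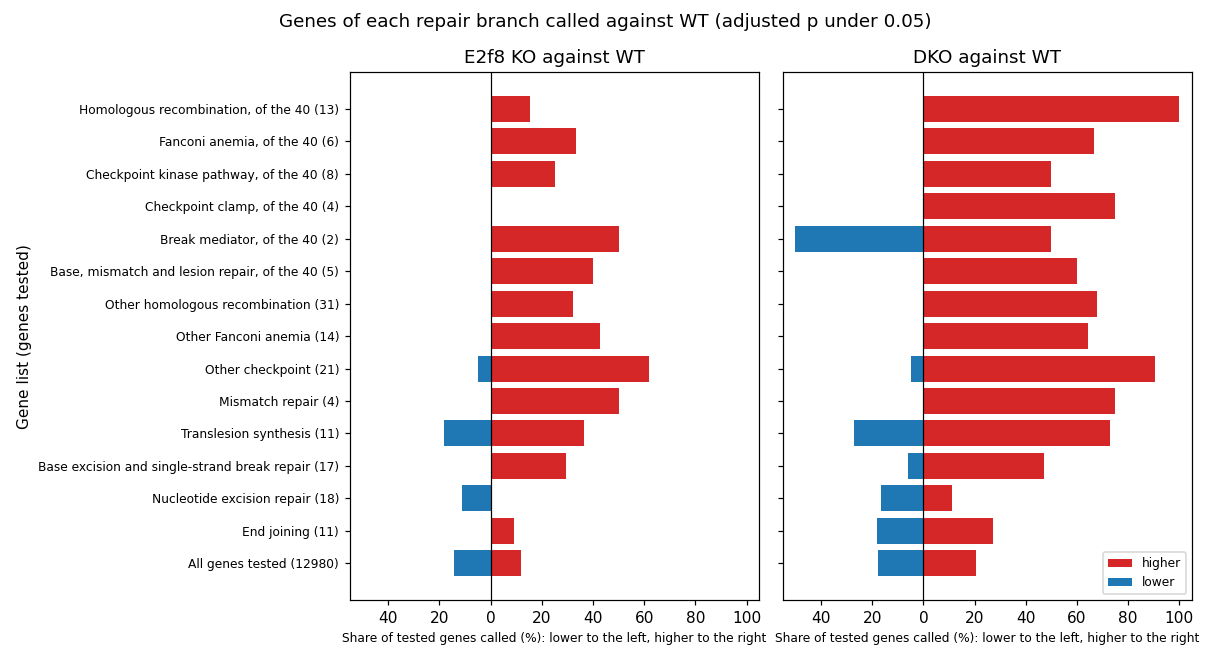
Share of tested genes of each repair branch (y axis, number of genes tested in parentheses, upper 6 rows from the 40 genes) that were called higher (red, to the right) or lower (blue, to the left) in E2f8 KO and in DKO against WT (x axis, percent). All 13 recombination genes are red in DKO, whereas nucleotide excision repair and end joining have both red and blue bars there, as all genes tested have in the lowest row.

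Genes of mitosis and of S phase, which mark dividing cells, also rose in E2f8 KO and DKO against WT. Their part in these results was not tested. In DKO against WT 21 of 21 S phase and 15 of 17 mitosis genes were called higher, with medians of 1.37 and 0.87. In E2f8 KO against WT 15 of 21 and 16 of 17 were, with medians of 0.69 and 0.98. The repair and checkpoint genes had 28 and 9 of 38 called higher in these comparisons, and all genes 20.6% and 11.9%. The mean of 17 mitosis genes was 11.37, 11.39 and 11.32 in DKO, 11.005, 10.44 and 9.81 in Rb KO, 11.56, 11.48 and 11.46 in E2f8 KO and 10.81, 10.29 and 10.43 in WT, so that every E2f8 KO array was above every DKO array, and the median difference of DKO from E2f8 KO was -0.13 with no gene called. The mean of 21 S phase genes was 11.79, 11.77 and 11.80 in DKO, 11.29, 10.74 and 10.27 in Rb KO, 11.21, 11.15 and 11.17 in E2f8 KO and 10.83, 10.10 and 10.33 in WT, and their median difference of DKO from E2f8 KO was 0.59 with 1 gene called, beside 0.51 with 4 called among the repair and checkpoint genes. In DKO against E2f8 KO 1.73% of all genes were called higher and 0.647% lower. There 4 of 31 other recombination genes, 1 of 14 other Fanconi genes, 4 of 21 other checkpoint genes and 3 of 11 translesion genes were called higher and none lower. They included Mad2l2 (1.04 ± 0.17, adjusted p = 0.00726), a subunit of the Rev3l polymerase, Rad51b (1.10 ± 0.20, adjusted p = 0.0129), which acts in recombination, Tonsl (1.10 ± 0.23, adjusted p = 0.0269), the partner of Mms22l, and Fancg (0.96 ± 0.20, adjusted p = 0.0262), a core complex subunit.

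The promoters of these genes were searched for the letters that E2F proteins are known to bind, because E2f8 and Rb act through such sites. RefSeq promoter windows (mouse build GRCm38.p6), from 250 bases before to 50 after the start of a gene, were at hand for 32 of the 38 genes. Wee1, Usp1, Fancd2, Rad9a, Rad54b and Exo1 had none. TTTCCCGC, TTTGGCGC, TTTGCCGC or TTTCGCGC, on either strand, stood in 7 of the 32 windows (21.9%), against 704 of 27025 genes (2.60%). The 7 were Brca2, Bard1, Topbp1, Mdc1, Chek2, Clspn and Msh6. Of the 23 genes higher in DKO against WT that had a window 6 held such letters, as did 1 of the 8 not called, and Trp53bp1 did not. The CCAAT motif stood in 16 of the 32 windows and 41.1% of all, and the GATA motif (AGATAA or AGATAG or TGATAA or TGATAG) in 3 of the 32 and 33.0%. The median GC content was 59.7% in the 32 windows and 52.8% over all genes, and the windows were not matched for it.

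Shown 5′ to 3′ on the strand of the gene are the 250 bases before the start for the 5 genes whose match lies there, with the E2F letters in capitals, and for Xrcc3, whose DKO arrays stood apart from the other 9 and whose window held no such match. Bard1 lies at chr1:71102973-71103222 (minus strand), Brca2 at chr5:150522371-150522620 (plus strand), Topbp1 at chr9:103305077-103305326 (plus strand), Mdc1 at chr17:35841248-35841497 (plus strand), Chek2 at chr5:110839733-110839982 (plus strand) and Xrcc3 at chr12:111813880-111814129 (minus strand). A match of letters is a description of the window and not a measured binding site.
Bard1: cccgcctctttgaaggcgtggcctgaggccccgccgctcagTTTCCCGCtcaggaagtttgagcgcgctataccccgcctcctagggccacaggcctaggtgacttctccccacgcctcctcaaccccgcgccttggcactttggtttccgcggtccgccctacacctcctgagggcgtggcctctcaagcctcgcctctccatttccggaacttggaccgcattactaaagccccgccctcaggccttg
Brca2: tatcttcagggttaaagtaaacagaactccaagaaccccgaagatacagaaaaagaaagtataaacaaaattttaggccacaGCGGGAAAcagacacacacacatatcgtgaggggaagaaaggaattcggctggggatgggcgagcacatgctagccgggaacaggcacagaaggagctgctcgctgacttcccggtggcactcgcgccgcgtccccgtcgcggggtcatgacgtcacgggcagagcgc
Topbp1: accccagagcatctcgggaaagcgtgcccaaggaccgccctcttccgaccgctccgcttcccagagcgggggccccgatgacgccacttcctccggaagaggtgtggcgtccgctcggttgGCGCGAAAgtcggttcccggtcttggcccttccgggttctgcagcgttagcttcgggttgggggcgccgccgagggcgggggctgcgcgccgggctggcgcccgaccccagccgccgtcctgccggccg
Mdc1: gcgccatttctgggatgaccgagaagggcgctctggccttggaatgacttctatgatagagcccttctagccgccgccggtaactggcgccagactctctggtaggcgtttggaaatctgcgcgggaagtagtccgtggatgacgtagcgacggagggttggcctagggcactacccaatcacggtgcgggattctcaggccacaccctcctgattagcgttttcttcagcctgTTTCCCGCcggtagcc
Chek2: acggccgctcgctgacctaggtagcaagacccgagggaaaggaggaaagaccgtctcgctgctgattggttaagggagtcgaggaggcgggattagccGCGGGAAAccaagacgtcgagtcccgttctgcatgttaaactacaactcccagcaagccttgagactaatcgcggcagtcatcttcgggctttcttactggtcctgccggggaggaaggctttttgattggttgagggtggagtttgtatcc
Xrcc3: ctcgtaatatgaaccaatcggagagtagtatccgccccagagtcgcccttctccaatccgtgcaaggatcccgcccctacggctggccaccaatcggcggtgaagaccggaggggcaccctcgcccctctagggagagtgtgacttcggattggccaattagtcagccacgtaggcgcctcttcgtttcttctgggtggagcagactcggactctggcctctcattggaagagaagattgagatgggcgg

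Genes with the match differed among themselves. Bard1, with TTTCCCGC at position -209 from the start, differed by 0.30 ± 0.24 in E2f8 KO and 1.32 ± 0.24 in DKO from WT, and Mdc1, with the same letters at position -16, by 0.83 ± 0.22 and 1.24 ± 0.22. Chek2 carries the same letters at position -152 and was called in neither comparison. Xrcc3, with none, had the third smallest p in DKO against WT.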

How the data were processed

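RNA of sorted spleen cells was labelled with biotin and hybridised to Affymetrix arrays, per the labels' protocols. The deposited values are log2 signals for 35557 probe sets on 12 arrays, with array medians of 6.22 to 6.35. MAS5 is named in the submitters' processing notes, with no version, and the step that put the deposited log2 values on their scale is not stated, so no further scaling was applied.

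Probe sets were named through the platform annotation (21789 with 1 symbol, 1621 with several and 12147 with none) and updated to RefSeq symbols. The lowest 40% by mean over all arrays (under 5.84) were left out, and per gene the probe set of highest mean was kept. The test was limma (version 3.58.1, under R 4.3.3; lmFit with 1 term per genotype label, eBayes with a variance trend) over 6 comparisons, with Benjamini-Hochberg adjustment over all 12980 genes. It was also run on simulated data, with independent noise of equal spread in all groups. The groups here differ in spread, so that run does not show how the test behaves on these arrays. The number of arrays, 3 per group, limits the precision, and an exact permutation test of 3 against 3 cannot go below 0.1, so none was run.

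The genes, lists and tests were chosen with earlier results of these data known. All 40 genes could be named, with full values for those of smallest p or of a named role, and up to 4 genes of smallest p per other list and comparison. Alternatives were other filters, scalings, thresholds and designs, covariates for cell makeup, array weights and leaving out arrays. Residuals of arrays with the same replicate number correlated between -0.379 and 0.57 across groups, so the numbers were not taken to pair the arrays.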

Additional observations from a re-analysis of the deposited data

How the results depend on the processing

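The counts of called repair and checkpoint genes were 9 for E2f8 KO, 0 for Rb KO and 29 for DKO, each against WT, then 28 for DKO when set against Rb KO, 4 when set against E2f8 KO, and 0 for the interaction. Each stayed within 1.5 times of this under array centring, quantile normalization, no filter, a 60% filter, averaging the probe sets of a gene and no variance trend. The replicate numbers were used as a replicate block although they were not taken to pair the arrays, and gave 11, 0, 30, 27, 4 and 0. Array weights gave 27 in E2f8 KO against WT, 22 in DKO against E2f8 KO and 1 in the interaction. Only the arrays of the groups compared gave 16 in E2f8 KO against WT, 18 in DKO against Rb KO and 20 in DKO against E2f8 KO. An adjusted p under 0.01 left 4 in E2f8 KO against WT and 14 in DKO against Rb KO, one under 0.1 gave 14 in E2f8 KO against WT, and a 2-fold minimum left 15 in DKO against Rb KO. Without the 2 arrays low in Xist the count was 5 in E2f8 KO against WT, 17 in DKO against Rb KO and 1 in DKO against E2f8 KO. Leaving out 1 array at a time gave 4 to 16, 0 to 0, 24 to 32, 15 to 34, 1 to 8 and 0 to 1, and 4 of 9, 23 of 29, 14 of 28 and 1 of 4 calls held in all 12 such fits. The cause of these shifts was not tested.

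With the B cell mean as covariate the counts were 0 in E2f8 KO against WT, 3 in DKO against WT, 1 in DKO against Rb KO, 7 in DKO against E2f8 KO and 1 in the interaction, and with both means 0, 0, 0, 1 and 1. Sign changes are listed only for genes called with or without the covariates, and those in genes called in neither fit are left out. Under the B cell covariate the listed signs that turned were Rad51ap1 -0.13 and Neil3 -0.28 in E2f8 KO against WT. In DKO against WT they were Brca1 -0.10, Bard1 -0.080, Brip1 -0.49, Palb2 -0.15, Rad51ap1 -0.035, Rad54l -0.63, Blm -0.96, Eme1 -0.14, Mms22l -0.36, Fancd2 -1.81, Fanci -0.86, Trp53bp1 0.42, Neil3 -0.82 and Parp1 1.68. In DKO against Rb KO they were Brca1 -0.50, Brca2 -0.24, Bard1 -0.74, Brip1 -0.99, Palb2 -0.34, Rad51ap1 -0.34, Rad54b -0.079, Exo1 -0.27, Blm -0.85, Eme1 -0.38, Mms22l -0.73, Fanca -0.46, Chek1 -0.58, Wee1 -0.15, Topbp1 -0.23, Neil3 -0.73 and Rad18 -0.26. Under both covariates they were Blm -0.13, Fanci -0.25 and Trp53bp1 0.30 in DKO against WT, and Bard1 -0.27, Brip1 -0.63, Rad51ap1 -0.12, Blm -0.52, Mms22l -0.30, Fanca -0.014 and Neil3 -0.064 in DKO against Rb KO. Among these only Fancd2 and Parp1 in DKO against WT passed the threshold (adjusted p = 0.0441 and 0.0395), and neither was called without the covariate. The SE of Brca1 in DKO against WT was 0.64 under the B cell covariate, beside 0.33 without it.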

Other observations

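Some repair genes were lower in DKO than in WT, among them 3 of 18 in nucleotide excision repair and 2 of 11 in end joining. These shares were near the 17.6% of all genes called lower, and 7 of the 11 end joining genes had a difference below 0. In nucleotide excision repair, Xpc, which finds distorted DNA, differed by -0.43 ± 0.13 (adjusted p = 0.0225), Ddb1, an adaptor of damage recognition, by -0.50 ± 0.16 (adjusted p = 0.0233), and Xpa, which checks the lesion, by -0.66 ± 0.23 (adjusted p = 0.0354). In end joining, Shld1, a subunit of the complex that acts downstream of Trp53bp1 to block resection, read 7.99, 8.005 and 7.42 in DKO, 8.67, 8.08 and 8.17 in Rb KO, 8.40, 8.35 and 8.38 in E2f8 KO and 8.98, 8.66 and 8.89 in WT, and differed by -1.04 ± 0.21 (adjusted p = 0.00168) from WT in DKO, with -0.47 ± 0.21 (adjusted p = 0.111) in E2f8 KO and -0.54 ± 0.21 (adjusted p = 0.835) in Rb KO. The polymerase Polm differed by -0.74 ± 0.27 (adjusted p = 0.0459). Xrcc6, which encodes the Ku70 subunit that binds broken ends, went the other way, with 1.03 ± 0.22 (adjusted p = 0.00267) in DKO.

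Polh, the polymerase that copies past ultraviolet lesions, read 10.43, 10.42 and 10.48 in DKO, 9.93, 9.16 and 8.73 in Rb KO, 11.14, 11.08 and 11.18 in E2f8 KO and 9.81, 9.10 and 9.27 in WT. Its E2f8 KO arrays were the highest, with a rise of 1.74 ± 0.26 (adjusted p = 0.00116) against WT, and DKO differed from E2f8 KO by -0.69 ± 0.26 (adjusted p = 0.194). Primpol, which restarts synthesis ahead of a lesion, read 9.57, 9.55 and 9.42 in DKO, 9.38, 9.10 and 8.71 in Rb KO, 8.08, 8.37 and 8.52 in E2f8 KO and 8.83, 8.34 and 8.04 in WT, and rose in DKO against E2f8 KO by 1.19 ± 0.23 (adjusted p = 0.0187).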
